A study of Mus musculus domesticus and Mus musculus molossinus with 8 samples.

Results

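The 10 genes described here are mouse targets of the transcription factor p53 and genes induced by DNA damage, Cdkn1a, Mdm2, Btg2, Ccng1, Plk2, Aen, Sesn2, Gadd45a, Gadd45b and Trp53inp1. They were chosen by name, as a fixed list, from the 23284 genes measured, and all 10 were present in the deposited tables. RNA was sequenced from the liver and thymus of 4 mice aged 8 weeks, 1 mouse per strain and treatment. The strains were MSM/Ms (MSM), bred from Japanese wild mice, and C57BL/6 (B6), a common laboratory strain. An injected mouse of each strain had received 1.5 µg of MegaFasL, a multimeric ligand of the death receptor Fas, into the peritoneal cavity, and the other mouse of each strain was untreated. Liver and thymus came from the same animal, which gave 8 libraries in 8 groups of 1 library. How long after the injection the tissues were taken is not stated in the sources used here.

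p53 is a transcription factor that is kept scarce by the ubiquitin ligase Mdm2 and accumulates after DNA damage and other stress. Its targets hold the cell cycle, adjust metabolism and repair, or lead to cell death, and Mdm2 is itself a target, which closes a feedback loop. The thymus is known for a strong p53 response, because its dividing lymphocyte precursors die readily after DNA damage, whereas most hepatocytes of an adult liver are not dividing. Several of these genes, among them Btg2, Gadd45a, Gadd45b and Sesn2, also respond to other stress signals without p53.

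Levels are given in FPKM, fragment numbers scaled by transcript length and library size, as the authors deposited them, and differences as log2(FPKM + 1), a scale that understates the change of low genes. Depth was low: by an estimate from the spacing of low values, 1 FPKM on 1 kb of transcript stood for 1.57 to 1.80 fragments in liver and 2.82 to 3.42 in thymus. Intervals in brackets are 95% exact Poisson intervals from those estimated fragments and cover counting error only. The 13 hepatocyte markers summed to 119357 to 158103 FPKM in liver, and the 12 thymocyte markers to 1478 to 2396 FPKM in thymus, so each tissue carried its own markers. A pair of libraries stood apart. The MSM untreated thymus held 3475 FPKM of hepatocyte markers, against 50.6 to 245 FPKM in the other thymi. It also held 1195 FPKM of adipose markers, against 135 to 213 FPKM in the other thymi. Its airway markers summed to 1165 FPKM, against 1.07 to 7.01 FPKM. The B6 untreated liver held 42.2 FPKM of thymocyte markers, against 5.24 to 7.54 FPKM in the other livers, and 497 FPKM of macrophage markers, against 92.4 to 242 FPKM.

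Gadd45a and Gadd45b encode related small proteins that bind the kinase MTK1 and act upstream of p38 and JNK. They are the pair whose liver values ran in opposite directions in the strains, so their coding sequences are shown as a check on whether a read could be assigned to the wrong gene. Bases 196 to 295 of the coding sequence of transcripts Gadd45a-201 and Gadd45b-201 (GENCODE M21, mm10) are printed 5′ to 3′, with the longest run shared by these stretches in capitals.
Gadd45a: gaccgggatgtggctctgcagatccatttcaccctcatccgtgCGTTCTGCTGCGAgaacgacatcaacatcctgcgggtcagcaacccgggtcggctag
Gadd45b: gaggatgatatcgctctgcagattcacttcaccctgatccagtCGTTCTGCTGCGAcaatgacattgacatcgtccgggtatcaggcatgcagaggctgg
The stretches were identical at 69 of 100 bases, and the shared run was 13 bases long. No 50-base window of either transcript occurred in the same orientation in a transcript of another gene. The same held for the other members except Mdm2, where 0.262% of windows did. Windows were not searched in the reverse orientation, so genes on the opposite strand would not show. Gadd45a (chr6:67035096-67037457, minus strand) and Cdkn1a (chr17:29090976-29100727, plus strand) overlap a gene on the opposite strand. Whether the authors counted by strand is not stated in the sources used here, so reads of these genes and of their partners cannot be told apart. The locus deposited for Gadd45a was longer (chr6:67035095-67080652). Its fragments were estimated from the 1223 bases of Gadd45a-201, and whether the authors used that model is not stated.

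Trp53inp1 was the most abundant of the 10 genes in both tissues, and the members differed widely in level. In liver, mean FPKM ran in the order Trp53inp1, Ccng1, Mdm2, Btg2, Gadd45b, Aen, Plk2, Sesn2, Gadd45a and Cdkn1a. The 4 livers of Trp53inp1 (24.9 to 97.7 FPKM) lay above those of Ccng1 (11.4 to 24.1 FPKM) without overlap, while every later neighbour in that order overlapped the one before it. In thymus the order was Trp53inp1, Btg2, Ccng1, Mdm2, Aen, Cdkn1a, Gadd45a, Gadd45b, Sesn2 and Plk2. There Trp53inp1 (111 to 191 FPKM), Btg2 (67.9 to 109 FPKM), Ccng1 (23.1 to 35.3 FPKM), Mdm2 (15.8 to 20.5 FPKM) and Aen (3.97 to 7.85 FPKM) followed each other without overlap, and the neighbours from Aen downwards overlapped. The range of each gene covers 4 mice that differ in strain and treatment.

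**Figure D1:**
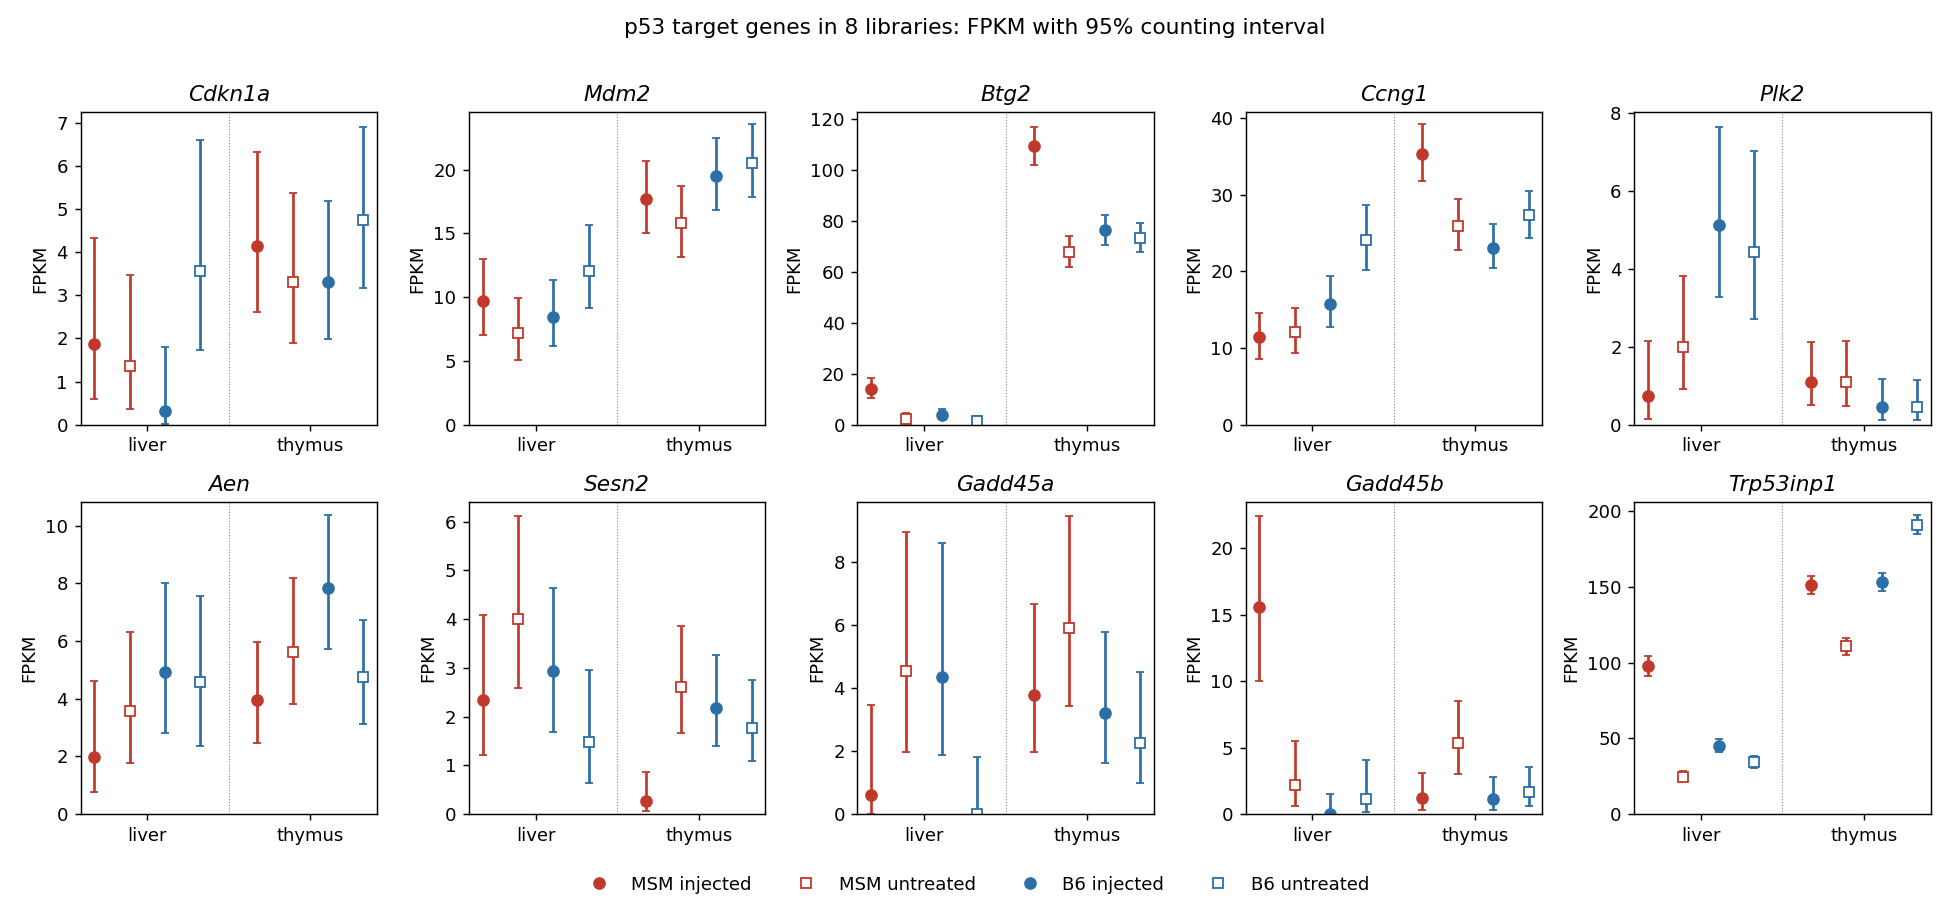
FPKM of each gene (vertical axis, linear, own scale per panel) in the 4 liver and 4 thymus libraries, as single points with 95% Poisson counting intervals (for a value listed at 0, up to the level of 3 fragments). Btg2 sits far lower in every liver than in any thymus, Trp53inp1 is also lower in each liver but the MSM injected liver (97.7 FPKM) comes close to the MSM untreated thymus (111 FPKM), and Gadd45b stands at 15.5 FPKM in the MSM injected liver and at or below 2.17 FPKM in the other livers.

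The first comparison set liver against thymus of the same mouse. Btg2, Trp53inp1, Mdm2, Cdkn1a and Ccng1 were lower in liver, and no member passed the test in the other direction. Across all genes the comparison was large: 60.7% of the 12880 genes tested with limma passed an adjusted p of 0.05, 32.1% lower and 28.6% higher in liver. Against that background 5 of 10 members were lower and 0 of 10 higher, and Plk2, Sesn2 and Gadd45b had positive differences with unadjusted p of 0.0554, 0.144 and 0.853. The median difference of the members was -0.82, against -0.13 over all genes tested. The 16 proliferation genes, which mark dividing cells, summed to 9.88 to 25.8 FPKM in liver and 608 to 859 FPKM in thymus, and all 16 were lower in liver; their part in the members' difference was not tested. In bulk tissue, fewer cells of a type and less RNA per cell cannot be told apart.

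The feedback genes were Mdm2 and Ccng1. Mdm2 (chr10:117688875-117710758, minus strand), the ligase that degrades p53, had 9.68 and 7.16 FPKM in the livers of the injected and untreated MSM mice and 8.46 and 12.1 FPKM in those of the injected and untreated B6 mice. In thymus the same mice had 17.7, 15.8, 19.5 and 20.5 FPKM. Every thymus lay above every liver, and the difference was -0.92 ± 0.17 (log2, SE, 4 mice, lower in liver in 4 of 4; limma adjusted p = 0.00434). Ccng1 (chr11:40748552-40755311, minus strand) encodes cyclin G1, which recruits the phosphatase PP2A to Mdm2. It had 11.4 and 12.1 FPKM in injected and untreated MSM livers and 15.7 and 24.1 FPKM in injected and untreated B6 livers. In thymus it had 35.3 and 26.0 FPKM in MSM and 23.1 and 27.4 FPKM in B6. The tissues overlapped, because the B6 untreated liver exceeded the B6 injected thymus. The paired difference was -0.82 ± 0.26, lower in liver in 4 of 4 mice (limma adjusted p = 0.0327), and it was not called without the MSM injected, B6 injected or MSM untreated mouse (adjusted p = 0.0991, 0.0638 and 0.0793).

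Among the genes that hold the cell cycle, Btg2 (chr1:134075170-134079120, minus strand), an antiproliferative protein that recruits the CCR4-NOT deadenylase to mRNA, had the largest difference of the 10. Its livers held 13.9 and 2.41 FPKM in injected and untreated MSM mice and 4.05 and 1.69 FPKM in injected and untreated B6 mice. Its thymi held 109 and 67.9 FPKM in MSM and 76.5 and 73.4 FPKM in B6. The tissues were far apart, by -3.99 ± 0.32 (lower in liver in 4 of 4 mice; limma adjusted p = 0.000188). Cdkn1a, which encodes the cyclin-dependent kinase inhibitor p21, was low everywhere. It had 1.86 and 1.35 FPKM in injected and untreated MSM livers and 0.325 and 3.56 FPKM in injected and untreated B6 livers, which corresponds to 5, 4, 1 and 10 estimated fragments. In thymus it had 4.13 and 3.32 FPKM in MSM and 3.30 and 4.75 FPKM in B6. The B6 untreated liver lay inside the thymus range and the other 3 livers below it. The difference was -0.94 ± 0.28, lower in liver in 4 of 4 mice (limma adjusted p = 0.0265). It was not called without the mouse term (adjusted p = 0.0536) or without the MSM injected, B6 injected or MSM untreated mouse (0.0668, 0.0893 and 0.0612).

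Plk2 (chr13:110395046-110400844, plus strand), a polo-like kinase linked to centriole duplication and checkpoints, had 0.734 and 2.00 FPKM in injected and untreated MSM livers and 5.13 and 4.45 FPKM in injected and untreated B6 livers. Its thymi held 1.11 and 1.09 FPKM in MSM and 0.456 and 0.446 FPKM in B6. Both B6 livers were above all thymi, and the MSM injected liver was inside the thymus range. The difference of 1.06 ± 0.45 did not pass (limma adjusted p = 0.0826), but it did without the MSM injected mouse (1.50, adjusted p = 0.0303). Gadd45a differed by -0.81 ± 0.40 (adjusted p = 0.122), and passed without the B6 injected mouse (-1.19, adjusted p = 0.0489). Gadd45b (chr10:80930073-80932204, plus strand) differed by 0.13 ± 0.69 (adjusted p = 0.877), with 1 of 4 mice, the MSM injected one, higher in liver.

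The genes linked to cell death were Aen and Trp53inp1. Trp53inp1 (chr4:11156431-11174379, plus strand), which takes part in autophagy and in cell death downstream of p53, rested on the most fragments, 223 to 798 in liver and 1625 to 3406 in thymus. Its livers held 97.7 and 24.9 FPKM in injected and untreated MSM mice and 45.1 and 34.5 FPKM in injected and untreated B6 mice. Its thymi held 151 and 111 FPKM in MSM and 153 and 191 FPKM in B6. No liver reached the lowest thymus, and the difference was -1.73 ± 0.31 (lower in liver in 4 of 4 mice; limma adjusted p = 0.00423). Aen (chr7:78895854-78911209, plus strand), a nuclease that promotes apoptosis, had 1.97 to 4.92 FPKM in liver and 3.97 to 7.85 FPKM in thymus, and its difference of -0.48 ± 0.21 was not called (adjusted p = 0.0887). Sesn2 (chr4:132492032-132510501, minus strand), a leucine sensor that restrains mTORC1, had 1.49 to 4.00 FPKM in liver and 0.262 to 2.60 FPKM in thymus, a difference of 0.51 ± 0.30 (adjusted p = 0.187).

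**Figure D2:**
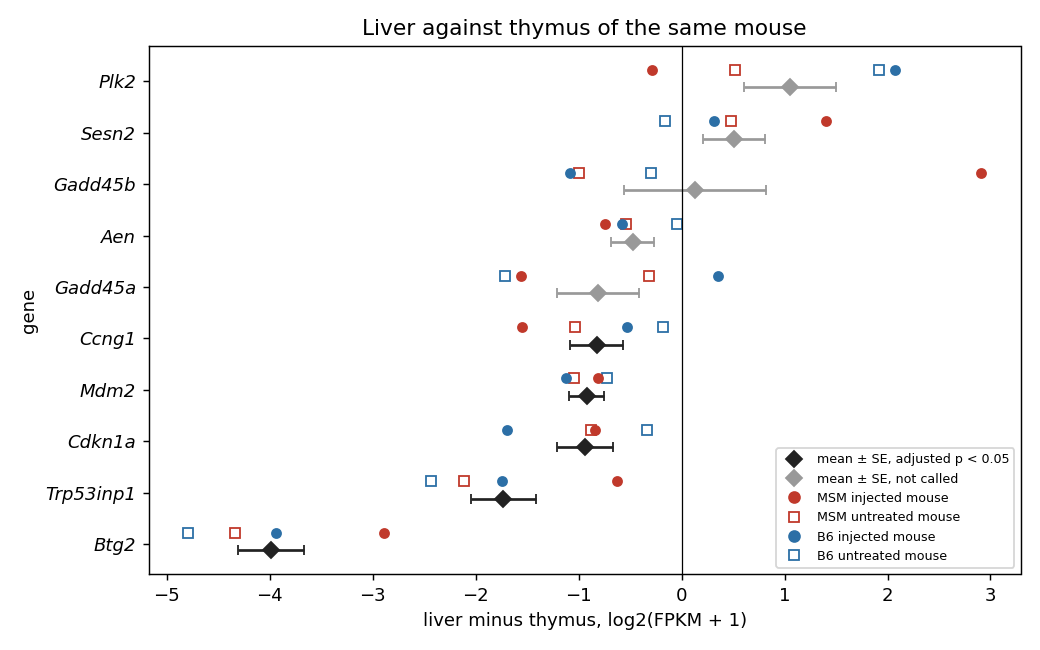
Liver minus thymus difference of each gene in log2(FPKM + 1) (horizontal axis), for each of the 4 mice (small points) and as the mean with its SE (diamonds; black where the limma adjusted p is under 0.05). Btg2 lies at -3.99 and 4 other genes between -1.73 and -0.82, all of them lower in liver in 4 of 4 mice.

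The scale of the libraries mattered for this comparison. The FPKM values of a library summed to 634900 to 768200 in liver and 314000 to 350400 in thymus. After rescaling to a common sum (TPM), the median over all genes moved by -0.92, and 14.4% of genes were higher and 53.8% lower in liver. The share of calls that were higher in liver was thus 21.1% under that scaling, against 47.1% with the deposited values. With TPM the same 5 members stayed lower in liver, and Aen (-1.49, limma adjusted p = 0.00205) and Gadd45a (-1.90, adjusted p = 0.0119) also passed. Measured from the median of all genes, the differences of Aen and Gadd45a under TPM were -0.44 and -0.85. Sesn2 and Gadd45b were at -0.18 and -0.79 under TPM and did not pass; measured from the median of all genes they were positive both under TPM (0.87 and 0.25) and with the deposited values (0.64 and 0.26).

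Other genes of the pathway were followed through lists. In liver minus thymus, 12 of 16 tested genes of the list of p53 and its regulators were lower and 2 higher. Trp53 itself had 4.46 and 6.99 FPKM in injected and untreated MSM livers, against 30.5 and 19.4 FPKM in the thymi of those mice, and 4.60 and 6.98 FPKM in injected and untreated B6 livers, against 23.2 and 22.9 FPKM in their thymi. Its difference was -1.89 ± 0.24 (limma adjusted p = 0.00105). The checkpoint kinase genes Chek1 and Chek2 differed by -2.63 ± 0.27 (adjusted p = 0.000429) and -1.67 ± 0.21 (adjusted p = 0.00102). Of the list of DNA damage response and repair genes, 21 of 28 were lower and 1 was higher, with H2afx (-3.75 ± 0.20), Xrcc6 (-3.16 ± 0.23) and Pcna (-3.01 ± 0.30) among the lowest. The higher gene, named after its value was seen, was the base excision repair nuclease Apex1 (0.53 ± 0.18; limma adjusted p = 0.0407), which was not called higher under TPM, where 0 of 28 were higher and 26 lower.

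The other p53 targets were more mixed. In the arrest and feedback list 11 of 14 were lower in liver, among them Ckap2 (-2.78 ± 0.26) and Gtse1 (-2.65 ± 0.25), both genes of dividing cells, and 2 were higher, Plk3 (2.92 ± 0.41) and Trp53inp2 (2.90 ± 0.41). In the cell death list 6 of 12 were lower, including Trp53i11 (-3.07 ± 0.41) and Apaf1 (-2.20 ± 0.30), and 2 were higher, Ei24 (3.09 ± 0.18) and Perp (2.01 ± 0.19). In the repair and metabolism list 7 of 15 were lower and 6 higher. The higher ones there were led by the glutaminase gene Gls2 (6.00 ± 0.43) and Pank1 (5.43 ± 0.43), which makes the coenzyme A precursor, and the carbonyl reductase gene Dcxr (3.94 ± 0.33) and the epoxide hydrolase gene Ephx1 (3.71 ± 0.20) followed. All differences named in this paragraph passed a limma adjusted p of 0.05. Among the family relatives of the 10 genes, 10 of 17 were lower and 4 higher. Plk3 was higher in liver and the mitotic kinase gene Plk1 lower (-3.50 ± 0.22), and Trp53inp2 was higher where Trp53inp1 was lower. Other relatives, named after their values were seen, went both ways. Mdm4 was lower as Mdm2 was, Btg1 as Btg2 and Ccng2 as Ccng1. Tob1, a relative of Btg2, was higher in liver (3.12 ± 0.31), and so was Gadd45g (1.53 ± 0.37), a relative of Gadd45a and Gadd45b.

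**Figure D3:**
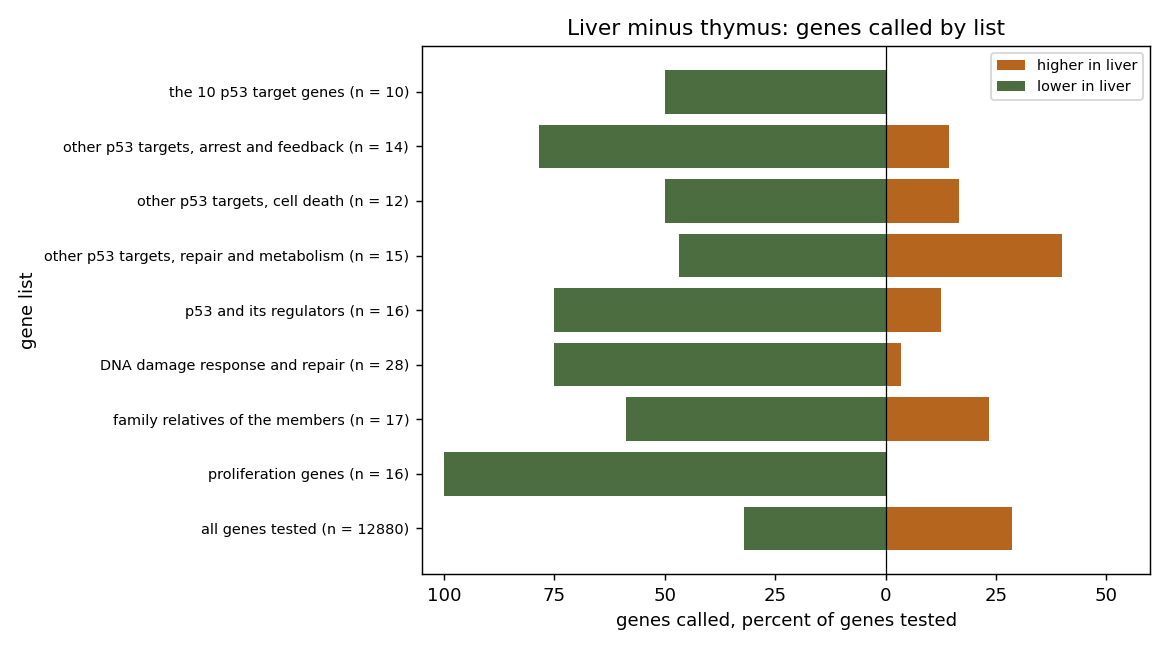
Percent of the genes tested in each list that were called in liver minus thymus (limma adjusted p under 0.05), higher in liver to the right and lower to the left. Of the 10 p53 target genes 50% were lower and 0% higher, against 32.1% and 28.6% of all genes tested, and the repair and metabolism list was the most evenly split with 46.7% lower and 40% higher.

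The second comparison set MSM against B6 within each tissue, over 1 injected and 1 untreated mouse of each strain. None of the 10 genes was called in either tissue by limma with Benjamini-Hochberg adjustment. In liver 1.47% of 10971 genes were called, and 1774 had an unadjusted p under 0.05, among them 2 members. These were Plk2, with 0.734 and 2.00 FPKM in injected and untreated MSM livers against 5.13 and 4.45 FPKM in injected and untreated B6 livers, and Gadd45b. Both MSM livers were below both B6 livers for Plk2, by -1.34 ± 0.42 (unadjusted p = 0.0247, limma adjusted p = 0.240). The paired thymi ran the other way, with 1.11 and 1.09 FPKM in MSM and 0.456 and 0.446 FPKM in B6, at 8 to 9 and at 4 fragments, and Plk2 was below the filter of a mean of 1 FPKM there. Gadd45b was higher in MSM liver by 2.31 ± 0.87 (unadjusted p = 0.0477, limma adjusted p = 0.303), and that difference lay mostly in the injected pair. It ranged from 1.12 without the MSM injected liver to 3.50 without the MSM untreated liver. Ccng1 was lower in MSM liver in both treatments by -0.68 ± 0.27 (adjusted p = 0.317), and Btg2 higher in both by 0.95 ± 0.42 (adjusted p = 0.362).

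In thymus 0.973% of 11610 genes were called for strain. Of the 9 members tested, 0 were called by limma and 0 had an unadjusted p under 0.05, against 1505 of all genes. The largest differences were those of Gadd45b (0.66 ± 0.46) and Gadd45a (0.63 ± 0.35), and both lay mostly in the untreated pair. Gadd45a differed by 0.19 in injected and 1.08 in untreated mice, and Gadd45b by 0.06 and 1.26. The injected thymi held 4 estimated fragments of Gadd45b in each strain. Without the MSM untreated thymus the differences were -0.10 for Gadd45b and 0.36 for Gadd45a. For both genes the MSM untreated thymus, the library with markers of other tissues, was the highest thymus; subtracting an estimated share of liver RNA left 5.26 of 5.33 FPKM for Gadd45b and 5.75 of 5.89 FPKM for Gadd45a, and RNA from fat or airway was not subtracted. None of the tested genes in the lists of other p53 targets, p53 regulators, DNA damage genes or family relatives was called for strain in either tissue. A test of whether the strain difference itself differed between liver and thymus called 0.365% of 12880 genes and 0 of the 10 members (limma). There Plk2 (-1.87 ± 0.51, unadjusted p = 0.0127, adjusted p = 0.258) and Ccng1 (-0.94 ± 0.35, unadjusted p = 0.0394, adjusted p = 0.370) were the 2 members with an unadjusted p under 0.05, against 1626 of all genes.

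The third comparison set injected against untreated mice. Injected and untreated libraries were deposited in separate tables, and no scaling common to both is stated, so treatment and table cannot be told apart, and each group was 1 library. Differences within a tissue are therefore given without a test, after centring the libraries of a tissue on their median ratio. With an added value of 1, none of the 10 genes was 2-fold or more apart in the same direction in both strains, in either tissue. Btg2 in liver became 1 such gene, higher in both, with an added value of 0.1 (1.15 in B6), under TPM (1.04 in B6) or with estimated thymus RNA subtracted from the B6 untreated liver (1.71). In liver 1.64% of 10971 genes were 2-fold higher in both strains and 1.24% 2-fold lower in both.

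Trp53inp1 and Btg2 stood higher in both injected livers. Trp53inp1 had 97.7 FPKM [91.0 to 105] in the injected and 24.9 FPKM [21.7 to 28.3] in the untreated MSM liver, and 45.1 FPKM [41.0 to 49.7] in the injected and 34.5 FPKM [30.6 to 38.6] in the untreated B6 liver. The counting intervals were apart in both strains, and the differences were 1.90 in MSM and 0.32 in B6. The authors' own bounds are wider, with upper bounds of 113 and 79.7 FPKM in the injected and untreated B6 liver. Their lower bounds were 0 for 99.98% or more of the values above 0 in each library. Btg2 had 13.9 FPKM [10.6 to 18.2] in the injected and 2.41 FPKM [1.25 to 4.49] in the untreated MSM liver, a difference of 2.10. In B6 it had 4.05 FPKM [2.34 to 6.23] in the injected and 1.69 FPKM [0.681 to 3.49] in the untreated liver, a difference of 0.86, with intervals that overlap. Btg2 is abundant in thymus, and the B6 untreated liver is the one that carried thymocyte markers; after an estimated share of thymus RNA was subtracted its value there was 0.475 FPKM and the B6 difference 1.71. In thymus the same differences were 0.60 in MSM and 0.02 in B6 for Btg2, and 0.37 in MSM and -0.36 in B6 for Trp53inp1.

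A difference in liver minus the difference in thymus of the same mice stays within 1 table and can be tested. It was 1.15 ± 0.37 for Btg2 (unadjusted p = 0.0241, limma adjusted p = 0.595) and 1.09 ± 0.40 for Trp53inp1 (unadjusted p = 0.0370, adjusted p = 0.645). Leaving out 1 mouse moved these to between 0.62 and 1.67 for Btg2 and between 0.53 and 1.65 for Trp53inp1, both lowest without the MSM injected mouse and highest without the B6 injected one. These were the 2 members with an unadjusted p under 0.05, against 974 of 12880 genes, and 0 members were called where 0.0388% of all genes were.

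In liver, Gadd45a and Gadd45b differed in opposite directions in the strains, but only the Gadd45b difference in MSM had counting intervals that were apart. Gadd45b had 15.5 FPKM [9.98 to 22.4] in the injected and 2.17 FPKM [0.583 to 5.48] in the untreated MSM liver, from 26 and 4 estimated fragments. In B6 it was listed at 0 in the injected liver and had 1.14 FPKM [0.138 to 4.10] in the untreated liver, from 2 fragments. A count of 0 allows up to 1.54 FPKM there at a floor of 3 fragments, so only the MSM pair is apart by counting error. The differences were 2.35 in MSM and -1.10 in B6. Gadd45a had 0.622 FPKM [0.0158 to 3.47] in the injected and 4.52 FPKM [1.96 to 8.93] in the untreated MSM liver, from 1 and 8 fragments. In B6 it had 4.35 FPKM [1.88 to 8.58] in the injected liver, from 8 fragments. It was listed at 0 in the untreated liver, which allows up to 1.80 FPKM at a floor of 3 fragments. The differences, -1.78 in MSM and 2.37 in B6, depend on the added value of 1. The intervals of the MSM pair overlap. In B6 the exact Poisson upper limit of the untreated liver was 2.22 FPKM. That is above the lower limit of the injected liver, 1.88 FPKM, so the intervals of the B6 pair overlap too. Only the floor of 3 fragments, 1.80 FPKM, falls just below that lower limit. With an added value of 1, differences of at least 2-fold in opposite directions were found in 2 of 10 members and in 1.07% of genes.

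The remaining members gave no direction shared by the strains at 2-fold. In MSM liver 3 of 10 members were 2-fold higher and 1 lower, where 6.75% and 7.03% of all genes were, and in B6 liver 1 was higher and 2 lower, where 6.49% and 6.19% were. The second lower gene in B6 was Cdkn1a, with 0.325 FPKM [0.00823 to 1.81] in the injected and 3.56 FPKM [1.72 to 6.61] in the untreated liver. These rest on 1 and 10 fragments, and with an added value of 5 the difference was -0.69, under 2-fold. In MSM liver Cdkn1a had 1.86 and 1.35 FPKM. Mdm2 differed by 0.36 in MSM and -0.52 in B6, Sesn2 by -0.61 and 0.62, Aen by -0.65 and 0.04, Plk2 by -0.80 and 0.12, and Ccng1 by -0.11 and -0.64. Mdm2 and Cdkn1a, the feedback gene and the arrest gene of the p53 response, were not 2-fold higher in an injected tissue of either strain. The Cdkn1a intervals in MSM liver were wide, 0.604 to 4.34 FPKM in the injected and 0.369 to 3.47 FPKM in the untreated one. Whether the injection changed p53 activity was not tested.

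In thymus 2 of 9 members were 2-fold lower and 0 of 9 higher in the injected MSM mouse, where 9.23% of genes were lower and 1.99% higher. No member was 2-fold apart in opposite directions there, as 0.568% of genes were. Gadd45b had 1.21 FPKM [0.326 to 3.07] in the injected and 5.33 FPKM [2.99 to 8.50] in the untreated MSM thymus, and Sesn2 had 0.262 FPKM [0.0613 to 0.869] in the injected and 2.60 FPKM [1.67 to 3.87] in the untreated one. Both compare against the library that held markers of other tissues, whose part in these differences was tested for liver RNA alone. With the estimated liver RNA subtracted, Sesn2 in the untreated MSM thymus was 2.47 FPKM, and both genes remained 2-fold lower. Neither did with an added value of 5, where the differences were -0.54 for Sesn2 and -0.76 for Gadd45b. The injected values rest on 3 estimated fragments for Sesn2 and 4 for Gadd45b. In B6 thymus no member was 2-fold higher or lower, where 2.10% and 1.75% of genes were.

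**Figure D4:**
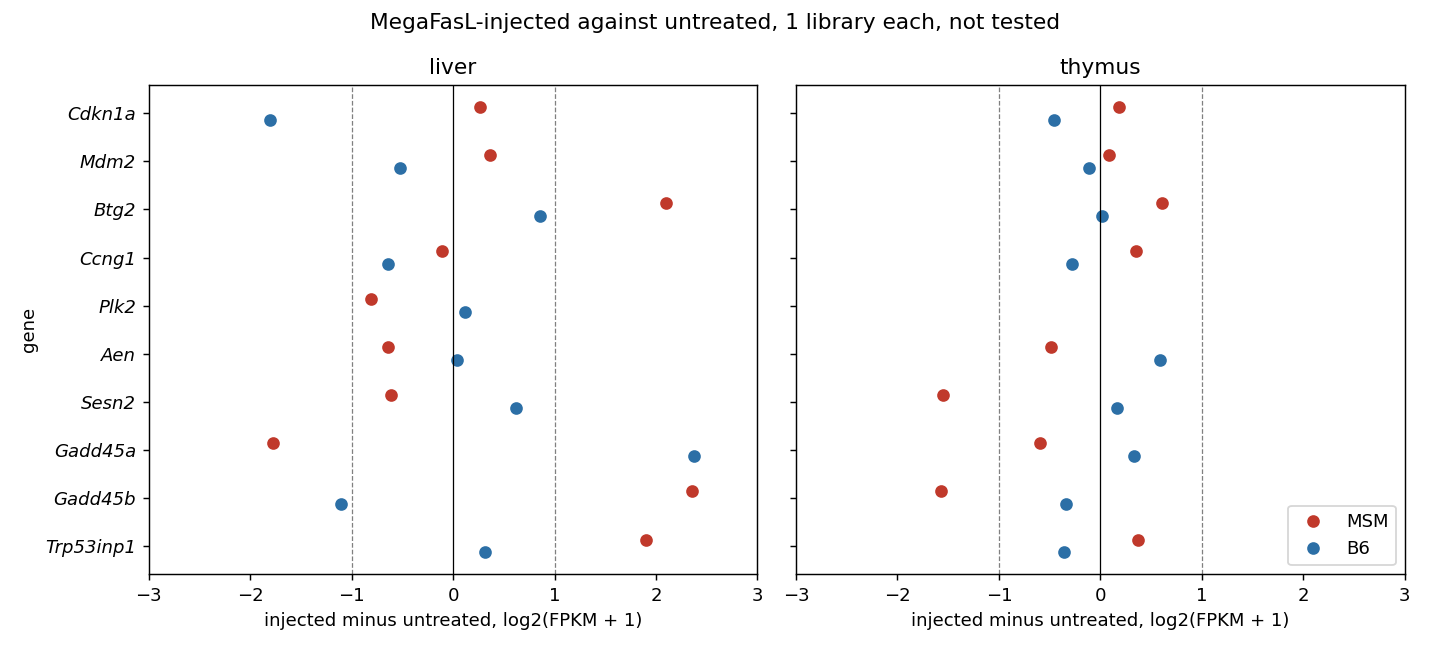
Injected minus untreated difference of each gene in log2(FPKM + 1) after centring (horizontal axis), in liver (left) and thymus (right), for MSM (red) and B6 (blue), 1 library per group; dashed lines mark 2-fold, and Plk2 is below the filter in thymus. Btg2 and Trp53inp1 lie to the right of 0 in both livers, and in liver Gadd45a and Gadd45b lie on opposite sides for the strains.

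Of the other p53 and DNA damage genes, few were 2-fold apart in both strains. In liver Trp53inp2, a relative of Trp53inp1 that acts in autophagy, had 86.0 and 36.2 FPKM in injected and untreated MSM livers and 52.4 and 21.2 FPKM in injected and untreated B6 livers, differences of 1.19 and 1.21. Tob2, a relative of Btg2, had 37.9 and 9.90 FPKM in injected and untreated MSM livers and 21.1 and 3.05 FPKM in injected and untreated B6 livers, differences of 1.80 and 2.39. Fas, which encodes the receptor of the injected ligand and is itself a p53 target, had 2.97 and 7.20 FPKM in injected and untreated MSM livers and 12.6 and 31.2 FPKM in injected and untreated B6 livers, differences of -1.07 and -1.31. Ercc1 (-1.09 in MSM, -1.49 in B6), Isg20 (-1.86 and -1.87) and Cdc42se1 (-1.04 and -1.33) were also lower in both. Of these, Ercc1 and Isg20 were low. Ercc1 had 0.72 and 2.63 FPKM in injected and untreated MSM livers. Isg20 was listed at 0 and had 2.62 FPKM in the same livers, and had 1.26 and 7.07 FPKM in injected and untreated B6 livers. By list, 1 of 9 arrest and feedback genes was higher and 1 lower in both strains, 0 of 10 cell death genes were higher and 1 lower, and none of 15 repair and metabolism genes or of 13 genes of p53 and its regulators was either. Of 23 DNA damage genes 0 were higher and 1 lower, and of 14 relatives 2 were higher and 1 lower. In thymus no gene of these lists was 2-fold apart in the same direction in both strains, where 0.276% of all genes were higher and 0.422% lower.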

How the data were processed

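Polyadenylated RNA of liver and thymus was sequenced after a TruSeq preparation, per the labels' protocols. TopHat, Cuffdiff 2.2.1 and the mm10 build are named in the submitters' processing notes. The authors deposited gene FPKM and its confidence bounds, with the injected mice in 1 table and the untreated in another; no scaling common to both is stated, and the annotation behind them is not given in the sources used here. MSM reads were aligned to a B6 reference, so divergent MSM genes can lose reads. The tables hold no counts. A scale from FPKM to fragments was estimated for each library from genes with 1 transcript of at least 1500 bases, such that 69.3% to 74.4% of low values became whole within 0.1, against 20% by chance. Of 48 member values under 30 fragments, 28 were whole within 0.1. Positions and sequences are from GENCODE M21 (mm10).

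Genes that averaged 1 FPKM or more (in either tissue across tissues) were tested as log2(FPKM + 1) with limma 3.58.1 (mean trend, two-sided, Benjamini-Hochberg over all genes, adjusted p under 0.05) in R 4.3.3. Liver minus thymus had mouse as a block, since both tissues came from 1 animal. Strain was fitted within a tissue with treatment as a term, and the strain or injection effect by tissue on the liver minus thymus difference of each mouse. These spreads are not those of mice of 1 group, since no group was replicated. Of listed symbols, 8 were not matched; older symbols were used where present. The code was tested on simulated data. The 10 genes, the other gene lists, the tests and the rule for named genes were chosen with earlier results of these data known. That rule takes all 10 genes, up to 4 genes per other list and comparison with the largest difference past a threshold, and the 2 genes most alike to each. Alternatives were added values of 0.1 and 5, no filter and a filter of 5 FPKM, TPM, centring, limma without trend or with robust moderation, no block, leaving out each library or mouse, and subtracting estimated liver RNA from the MSM untreated thymus; subtracting thymus RNA from the B6 untreated liver was added after seeing the data.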

Additional observations from a re-analysis of the deposited data

Results flagged for a closer look

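The change with injection in liver ran in opposite directions in MSM and B6 for Gadd45a and Gadd45b. For Gadd45a the change in MSM minus the change in B6 was -4.15 on the log2(FPKM + 1) scale. For Gadd45b it was 3.46. Neither difference was tested, since each group was 1 library, and 5 of the 8 liver values involved rest on 4 or fewer estimated fragments. With an added value of 5 the changes of Gadd45a were -0.76 in MSM and 0.88 in B6, under 2-fold in both strains. Those of Gadd45b were 1.49 in MSM and -0.30 in B6, under 2-fold in B6. Neither gene was then 2-fold apart in opposite directions.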

How the results depend on the processing

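The counts of liver minus thymus calls stayed within 1.5 times under every alternative (6313 to 7286 without 1 mouse), and without the mouse block (no paired term) 8130 genes were called and Cdkn1a lost its call (adjusted p = 0.0536); the cause was not tested. Strain calls in liver numbered 161, against 336 with TPM, 37 without trend and 0 to 0 without 1 library. In thymus they numbered 113, against 300 with an added value of 0.1, 62 without filter, 184 with a filter of 5 FPKM, 45 with TPM, 61 centred, 44 without trend, 274 with robust moderation, 281 with liver RNA subtracted and 10 to 301 without 1 library. The injection by tissue test called 5, against 1 (0.1), 3 (no filter), 3 (5 FPKM), 1 (TPM), 3 (centred), 0 (no block) and 0 to 1 without 1 mouse. The strain by tissue test called 47, against 5 (0.1), 132 (added 5), 15 (no filter), 15 (5 FPKM), 8 (TPM), 27 (centred), 26 (no trend), 30 (robust) and 0 to 51 without 1 mouse. Fits without 1 library or mouse, except liver minus thymus, drop the block term. Genes 2-fold apart in both injected livers numbered 316, against 554 (0.1), 107 (added 5) and 197 (5 FPKM); in thymus 81, against 230, 25, 39 and, with TPM, 297. No member was called for strain, or in the tests by tissue, under any alternative. TPM moved all genes in liver minus thymus by -0.92. Signs turned, with no call on either side, for Cdkn1a in the liver strain test (-0.033, added 5), Gadd45b in liver minus thymus (-0.44, added 0.1; -0.79, TPM), Sesn2 there (-0.18, TPM; both TPM values are positive, 0.25 and 0.87, from the median of all genes), and in strain by tissue Gadd45a (0.67, added 0.1) and Mdm2 (0.021, added 5; 0.0076, centred; 0.0034 and 0.013, liver or thymus RNA subtracted). Without 1 library, strain differences in liver ranged from -0.81 to 0.97 (Cdkn1a), -0.11 to 2.02 (Btg2), -0.84 to 1.58 (Gadd45a) and -0.65 to 1.29 (Trp53inp1), and in thymus from -0.29 to 0.13 (Cdkn1a), -0.14 to 0.54 (Btg2), -1.23 to 0.28 (Sesn2) and -0.10 to 1.42 (Gadd45b). Without 1 mouse, Gadd45b in liver minus thymus ranged from -0.79 to 0.54; injection by tissue from -0.24 to 0.079 (Mdm2), -0.94 to 0.081 (Ccng1), -1.50 to 0.86 (Plk2), -0.54 to 1.37 (Gadd45a) and -0.43 to 3.55 (Gadd45b); strain by tissue from -0.52 to 0.84 (Cdkn1a), -0.20 to 0.19 (Mdm2), -1.29 to 0.77 (Gadd45a), -0.31 to 3.60 (Gadd45b) and -0.022 to 1.46 (Trp53inp1). Depth limits Cdkn1a, Plk2, Aen, Sesn2, Gadd45a and Gadd45b, whose liver values rest on 0 to 26 estimated fragments, and Btg2, with 7 to 18 in 3 of 4 livers.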

Other observations

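Genes of 3 neighbouring stress programmes were counted beside the p53 targets. In liver 2 of 12 immediate-early genes were at least 2-fold higher in both injected mice, Maff (2.73 in MSM, 2.33 in B6) and Egr1 (2.51 and 1.84). Of 11 glucocorticoid-responsive genes 3 were, Fkbp5 (3.87 in MSM, 2.02 in B6), Per1 (3.24 and 3.43) and Zbtb16 (2.13 and 2.37). None of 8 integrated stress response genes was 2-fold apart in the same direction in both strains. Taken by strain, 8 of 12 immediate-early genes were 2-fold higher in the injected MSM liver and 2 of 12 in the injected B6 liver, and 9 of 11 glucocorticoid-responsive genes in MSM and 4 of 11 in B6, where 1 was also lower. Of the integrated stress genes 3 were 2-fold higher in MSM and 2 lower in B6, and 2 genes were 2-fold apart in opposite directions. Over all genes in liver, 6.75% were 2-fold higher in MSM, 6.49% in B6 and 1.64% in both strains. In the B6 untreated liver Maff was listed at 0, and Egr1 and Per1 had 0.42 and 0.27 FPKM. The difference between the strains was not tested. In thymus 2 of 10 glucocorticoid-responsive genes were 2-fold higher in both strains, Tsc22d3 (1.69 in MSM, 1.34 in B6) and Fkbp5 (1.42 and 1.25), and Nupr1 of the integrated stress list was lower (-2.46 and -1.41). These values have no test, for the same reason as those of the p53 targets. Over all genes in thymus, 0.276% were 2-fold higher and 0.422% 2-fold lower in both strains. For strain, Egr1 was higher in MSM liver (2.64 ± 0.33, limma adjusted p = 0.0442) and the kinase gene Sgk1 in MSM thymus (3.15 ± 0.29, adjusted p = 0.00786). In liver minus thymus, 3 of 13 immediate-early genes were higher and 3 lower, and 5 of 11 glucocorticoid-responsive genes higher and 1 lower. Of 12 integrated stress genes 2 were higher and 3 lower. Over all genes tested there, 28.6% were higher and 32.1% lower.

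Marker lists of other cell types moved with some comparisons. The 11 macrophage markers were at least 2-fold lower in the injected liver for 1 gene in MSM and 9 in B6, where the untreated library stood apart, and 2 of 11 were called lower in MSM than in B6 liver. The 8 neutrophil markers summed to 43.3 FPKM in the injected and 3.01 FPKM in the untreated MSM thymus, and to 47.9 and 26.4 FPKM in the injected and untreated B6 thymus. The 7 erythroid markers summed to 838 FPKM in the injected and 96.6 FPKM in the untreated MSM liver, and to 216 and 299 FPKM in the injected and untreated B6 liver. Their part in the values of the p53 targets was not tested.

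The genes whose pattern over the 8 libraries, after removing the mean of each tissue, was most like that of a member were Chd1l and Utrn for Btg2 (Pearson r of 0.99 and 0.98), Polr2m and Rbm18 for Trp53inp1 (both 0.98), Obfc2b and Igfbp1 for Gadd45b (both 0.97) and Aqr and Commd3 for Cdkn1a (0.98 and 0.97). Each pair is the highest of 7419 or 7420 candidates across 8 points and is a description only.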
